A study of Homo sapiens with 6 samples.

Results

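The snoRNA host genes GAS5, SNHG1, SNHG3, SNHG5, SNHG6, SNHG8, SNHG12, SNHG15 and ZFAS1 were examined in PANC-1 cells with ZDHHC20 silencing. They were chosen by name, with earlier results of these data known. Each is a gene without a known protein product that carries small nucleolar RNAs (snoRNAs) in its introns. All 9 were found among the 27394 genes of the deposited table, and all 9 passed the filter on low values. PANC-1 is an established human pancreatic ductal carcinoma line, and the sources differ on its medium, which is RPMI-1640 in the sample labels and DMEM in the study's methods. By the sample titles, the shControl group carried a control shRNA and the shZDHHC20 group an shRNA against ZDHHC20, a palmitoyl acyltransferase. The columns of the deposited table are headed NC and siZDHHC20, so the sources differ on whether an shRNA or an siRNA was used. Each group had 3 libraries and no other agent. The labels do not say which of the study's shRNA sequences was used, nor whether the libraries came from separate cultures, so p-values measure the spread between these libraries, which may be technical.

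snoRNAs guide the chemical modification of ribosomal and spliceosomal RNA, and most human snoRNAs are cut out of the introns of longer transcripts. C/D box snoRNAs direct ribose methylation with the methyltransferase fibrillarin, and H/ACA box snoRNAs direct pseudouridylation with dyskerin. In a non-coding host gene the spliced exons are left over once the introns are processed, and many of these spliced RNAs meet ribosomes and are removed by nonsense-mediated decay. Many hosts, coding or not, start transcription at a C followed by a pyrimidine run, the terminal oligopyrimidine (TOP) start that ribosomal protein genes share, which ties translation of the RNA to growth signals.

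Of the 9 host genes, 5 were lower in the shZDHHC20 group and 0 were higher. SNHG8, SNHG5, SNHG15, GAS5 and SNHG1 fell to between 74.9% and 86.6% of their control means. ZFAS1, SNHG6, SNHG3 and SNHG12 did not pass the test. Over all 22189 genes tested, 6.84% were called lower and 4.61% higher by the same rule, an adjusted p under 0.05 from limma. Among the 10908 genes that averaged 100 or more, a class that holds all 9 host genes, 13.3% were called lower. Because the 9 genes were chosen with earlier results of these data known, their share is a description. The median log2 fold change of the 9 genes was -0.25, against 0.01 for all genes tested. These counts rest on modest changes, and leaving out any library other than shZDHHC20 replicate 2 reduced the 5 calls to 1 or 2. With the same fold changes but no mean-variance trend in the model, 0 of the 9 passed (351 of all genes did, and 5 of the 9 had an unadjusted p under 0.05).

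To show the start sites at which these RNAs begin, the window from 45 bases before to 30 bases from the RefSeq start is printed for 6 of the 9 genes, 5′ to 3′ on the gene's strand (RefSeq, GRCh38.p14). RefSeq windows were matched for 7 of 9 genes, and none for SNHG6 and SNHG15. Capitals mark a pyrimidine run of at least 5 bases that begins with C and covers the start base, and the sequence TATATAA where it is present on the gene's strand. The windows lie at chr6:85678704-85678778 (minus strand), chr20:49278597-49278671 (plus strand), chr1:28581844-28581918 (minus strand), chr4:118278717-118278791 (plus strand), chr11:62855856-62855930 (minus strand) and chr1:28505898-28505972 (plus strand).
SNHG5: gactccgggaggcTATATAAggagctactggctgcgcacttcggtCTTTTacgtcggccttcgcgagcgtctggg
ZFAS1: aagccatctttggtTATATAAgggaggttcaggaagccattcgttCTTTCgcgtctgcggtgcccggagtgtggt
SNHG12: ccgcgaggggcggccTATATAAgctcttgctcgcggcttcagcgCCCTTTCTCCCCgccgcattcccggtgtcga
SNHG8: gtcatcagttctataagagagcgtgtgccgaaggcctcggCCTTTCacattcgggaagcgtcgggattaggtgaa
SNHG1: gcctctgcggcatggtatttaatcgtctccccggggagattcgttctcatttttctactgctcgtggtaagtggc
SNHG3: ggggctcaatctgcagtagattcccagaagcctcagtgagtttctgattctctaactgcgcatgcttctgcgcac
The seventh gene, GAS5, has its RefSeq start 1056 bases upstream of the start that most often opens its GENCODE 29 transcripts (6 of 29), and no such run covers the RefSeq start. The first 30 bases from that GENCODE start, at chr1:173867960-173867989 on the minus strand of GRCh38, are printed with the run in capitals.
GAS5: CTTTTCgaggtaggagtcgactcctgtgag

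The run that covers the start base was 5 bases long in SNHG5 and ZFAS1, 6 in SNHG8 and 12 in SNHG12. Counted from the start base, the run begins at -5 in SNHG8, where it ends at the start base, and at -1 in SNHG12. From its RefSeq start SNHG8 thus reads C and then A, with no pyrimidine run after the start base. It was found in 4 of the 7 RefSeq windows, and in 7.87% of the 35116 RefSeq promoter windows of 300 bases. SNHG5, ZFAS1 and SNHG12 also shared TATATAA, which begins 32, 31 and 30 bases upstream of their starts and stands on the gene's strand in 1.75% of all windows. The palindrome CACGTG, the E-box that MYC with MAX can bind, was in 0 of the 7 windows and in 7.26% of all windows. These are matches of letters in fixed windows. Of the 4 genes with the run, SNHG5, SNHG8 and ZFAS1 had log2 fold changes of -0.37, -0.42 and -0.30, and SNHG12 had 0.07. ZFAS1 and SNHG12 did not pass the test, and differences between the genes were not tested. GAS5 fell, and no such run covers its RefSeq start. A GENCODE start was examined for GAS5 only, and no share over all GENCODE starts was taken, so its run there is not counted. SNHG1 fell with a start base inside a run that does not begin with C.

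The libraries were compared before the host genes were described. Taking the smallest step of the values in each library as 1 read, pairs of control libraries differed by 1.83 to 1.93 times the variance of counting error (median over 5353 to 5391 genes with 200 to 1000 reads). The shZDHHC20 replicates 1 and 3 differed by 1.85 times, but replicate 2 stood at 5.11 and 6.26 times from them. Mitochondrial genes held 4.01% of its summed values and 5.28% to 5.52% in the other 5 libraries. Results are therefore also given without it. ZDHHC20 itself fell from 1991 ± 46.9 (SD, n = 3) to 848 ± 61.02 (SD, n = 3), and its log2 fold change was -1.23 (limma, adjusted p = 4.36e-07). MYC, the transcription factor whose RNA the study follows, was 1870 ± 89.1 (SD, n = 3) in the control and 1240 ± 26.8 (SD, n = 3) in the silenced libraries (log2 fold change -0.59, limma, adjusted p = 2.79e-05). Of 6 markers of the line, KRT8, KRT18, KRT19, VIM and TGFBI had means from 6110.5 (KRT19) to 53858 (KRT8), and KRT7 a mean of 85.9. Of 14 markers of other cells, 5 were listed, with means from 1.17 to 6.66 (PRSS1, PTPRC, CDH5, LUM and PDGFRB). In bulk libraries, fewer cells and less RNA per cell cannot be told apart.

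Normalized counts per kilobase of exon were used to rank the host genes against each other. In the control group SNHG5 was the most abundant, with 1245 ± 9.46 (SD, n = 3), followed by GAS5 with 669 ± 2.17 (SD, n = 3). SNHG1, SNHG8 and SNHG6 followed with 374 ± 3.35, 373 ± 36.9 and 347 ± 15.6 (SD, n = 3 each). Their ranges overlapped, except that SNHG1 lay above SNHG6 in all 3 libraries. ZFAS1, at 326 ± 11.1 (SD, n = 3), overlapped SNHG6 but not SNHG1 or SNHG8. SNHG3 (187 ± 2.36), SNHG15 (138 ± 0.834) and SNHG12 (43.9 ± 7.67, SD, n = 3 each) were lower and did not overlap. When the length of the longest transcript was used in place of the exon union, ZFAS1 moved up to follow GAS5 (679.6 per kilobase), just above SNHG6 (668) and above SNHG8 (512) and SNHG1 (508). The order in the middle of the list therefore depends on the length used, while the first 2 and the last 3 places did not change.

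**Figure D1:**
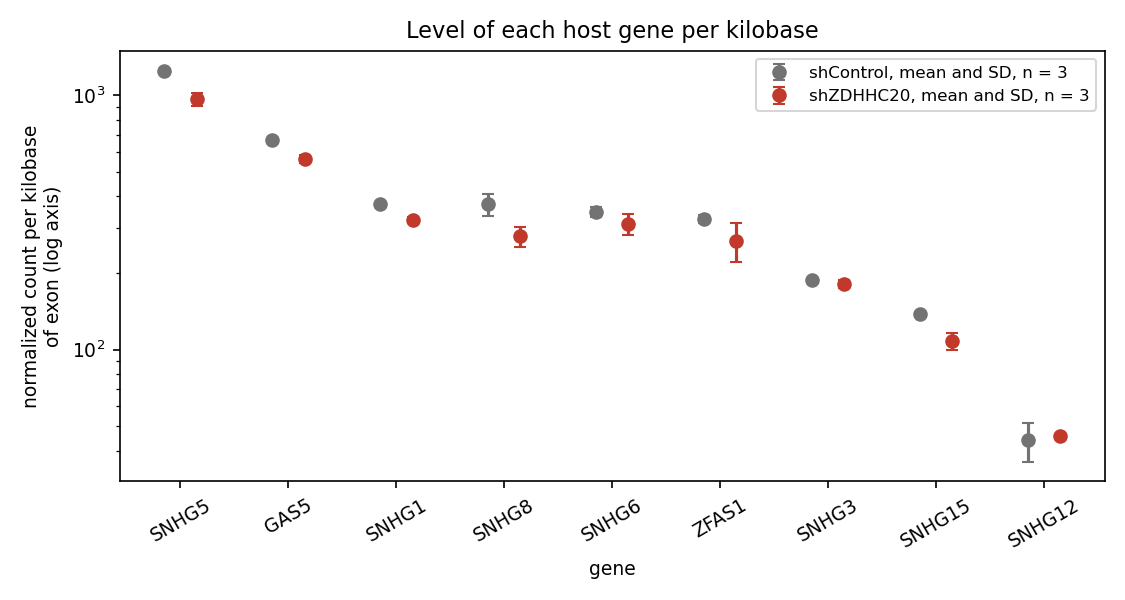
Normalized count per kilobase of exon union (log axis) for the 9 host genes, in order of the shControl mean. Points are means and bars are SD over 3 libraries for each group. SNHG5 leads with 1245 in the control, and SNHG12 is last with 43.9.

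SNHG5 (ENSG00000203875, chr6:85660950-85678748 of GRCh38, minus strand) carries SNORD50B in the annotation, a C/D box snoRNA. The 3 control libraries held 3464, 3515 and 3501 normalized counts, and the 3 silenced libraries 2862, 2529 and 2722, in the order of their replicate numbers here and for each gene that follows. The control SD of 26.6 was below the counting error of a single library (SD 59.3). All silenced libraries lay below all control libraries, and the mean came to 77.4% of the control. The log2 fold change of SNHG5 was -0.37 (SE 0.0541, limma, adjusted p = 0.000639). This was the only one of the 9 genes that was called with each of the 6 libraries left out in turn (log2 fold changes from -0.41 to -0.32, adjusted p at most 0.0173).

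SNHG8 (ENSG00000269893, chr4:118278709-118279823, plus strand) is the most compact host, with a span of 1115 bases, and carries the H/ACA box snoRNA SNORA24. The control values were 383, 328 and 320.4, and the silenced values were 277, 265 and 231. The groups did not overlap, although control replicate 1 lay well above the other 2. At 74.9% of the control this was the lowest mean among the 9 genes (log2 fold change -0.42, SE 0.106, limma, adjusted p = 0.0213). With 1 library left out it was called only without shZDHHC20 replicate 2, and the adjusted p was from 0.051 to 0.141 without any other library.

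SNHG15 (ENSG00000232956, chr7:44983023-44986961, minus strand) carries SNORA9, an H/ACA box snoRNA, and is known as a short-lived RNA that responds to stress. Its values were 504, 499 and 505 in the control and 399.6, 419 and 359.9 in the silenced libraries. The control libraries were closer together (SD 3.04) than the counting error of a single library (SD 22.5). The silenced mean was 78.1% of the control, and the groups did not overlap (log2 fold change -0.36, SE 0.0822, limma, adjusted p = 0.0125). It too was called only without shZDHHC20 replicate 2 when 1 library was left out, with adjusted p from 0.0511 to 0.0763 otherwise.

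GAS5 (ENSG00000234741, chr1:173863900-173868882, minus strand) was named for its accumulation in growth-arrested cells, where its spliced RNA escapes decay, and its 3′ part can bind the glucocorticoid receptor. The control values were 2436, 2421 and 2429, and the silenced values were 1958, 2120 and 2048. The groups did not overlap, and the mean was 84.1% of the control (log2 fold change -0.25, SE 0.0519, limma, adjusted p = 0.00685). The control SD of 7.88 was again below the counting error of a single library (SD 49.4), so the control spread at this gene is smaller than counting alone would usually give. The call was lost without shControl replicate 1 (limma, adjusted p = 0.0568), shControl replicate 3 (0.0557) or shZDHHC20 replicate 1 (0.0523).

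SNHG1 (ENSG00000255717, chr11:62851988-62855914, minus strand) was among the first non-coding hosts described. In the annotation, which places none within the known host GAS5, it holds 7 snoRNAs, the most of the 9 genes. SNORD22, SNORD25, SNORD26, SNORD27, SNORD28 and SNORD30 are among them. The values of SNHG1 were 1419.7, 1401 and 1396 in the control and 1207, 1255 and 1190.4 in the silenced libraries. The groups did not overlap, and the mean was 86.6% of the control (log2 fold change -0.21, SE 0.0559, limma, adjusted p = 0.029). This call held in 9 of 17 alternatives, against 10 to 15 for the other called genes. It was lost with scaling to equal library sums (limma, adjusted p = 0.0833). It was also lost without any library other than shZDHHC20 replicate 2 (adjusted p from 0.0863 to 0.13). Without moderation of the variance it was kept (linear model, adjusted p = 0.0379), while SNHG5, SNHG8 and SNHG15 lost theirs. That fit rests on the spread of each gene alone. The control SD of SNHG1 (12.6) was below the counting error of a single library (SD 37.6).

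The other 4 host genes gave no call. ZFAS1 (ENSG00000177410, chr20:49278178-49295738, plus strand), the host of the SNORD12 family, had control values of 717, 759 and 715 and silenced values of 684, 479.9 and 637. The groups did not overlap, but shZDHHC20 replicate 2 lay far below the other 2 silenced libraries. The log2 fold change was -0.30 (SE 0.109, 95% interval -0.53 to -0.06, limma, adjusted p = 0.104). Without replicate 2 it was -0.15 (limma, adjusted p = 0.133), so this library set much of the difference. SNHG6 (ENSG00000245910, chr8:66921684-66926398, minus strand), the host of SNORD87, had control values of 429, 454 and 416 and silenced values of 349, 419 and 397. The groups overlapped at the control library of 416 (log2 fold change -0.16, 95% interval -0.35 to 0.03, limma, adjusted p = 0.311).

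SNHG3 (ENSG00000242125, chr1:28505980-28510892, plus strand) carries SNORA73A and SNORA73B, H/ACA box snoRNAs that take part in processing of the ribosomal RNA precursor. Its values were 754, 765 and 773 in the control and 739.9, 764 and 712 in the silenced libraries. The groups overlapped (log2 fold change -0.05, 95% interval -0.19 to 0.09, limma, adjusted p = 0.707), and its difference from the called genes was not tested. SNHG12 (ENSG00000197989, chr1:28578538-28583132, minus strand), which carries SNORD99 and 3 H/ACA box snoRNAs, had control values of 223, 179.8 and 159 and silenced values of 197, 195 and 192. The silenced libraries lay within the range of the control libraries (log2 fold change 0.07, 95% interval -0.21 to 0.35, limma, adjusted p = 0.796). The sign of this difference turned without shControl replicate 3 (-0.04).

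The silenced libraries lay below all control libraries at 6 of the 9 genes, the 5 that were called and ZFAS1, while this held for 14.8% of all genes tested. For each of these 6 genes the two-sided exact permutation test over libraries gave p = 0.1, the smallest that 3 against 3 allows. Each shZDHHC20 library lay below the control mean at 8 of the 9 genes, and SNHG12 was the exception in all 3. The 9 genes together made up 0.0575%, 0.0574% and 0.0567% of the summed normalized counts in the control libraries and 0.0494%, 0.0494% and 0.0478% in the silenced libraries. Without shZDHHC20 replicate 2, which stood apart, the called genes were the same 5 and their log2 fold changes were from -0.44 to -0.23, while calls over all genes rose from 2541 to 4268.

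The snoRNAs themselves were hardly measured. The annotation places 20 snoRNA genes within the 9 hosts on the same strand, and none within GAS5, although this gene is known to host C/D box snoRNAs. Of the 20, 4 are listed in the table. SNORA73B, inside SNHG3, had 13.1, 19.1 and 9.01 in the control and 20.1, 7.51 and 27.9 in the silenced libraries. SNORD12B, inside ZFAS1, had 6.06, 5.02 and 5.01 in the control and 18.02, 9.39 and 9.62 in the silenced libraries, which did not overlap (log2 fold change 1.13, SE 0.517, limma, adjusted p = 0.206). SNORD12C, also inside ZFAS1, had means of 3.35 and 3.52, and SNORD99, inside SNHG12, had means of 0.335 and 2.69. None of the 4 was called, and values this low cannot separate a change from counting error. Of all genes listed, 191 are among the 943 annotated snoRNA genes, and 3 of them have a mean of at least 10. The values of the host genes are those of their long transcripts, spliced or not.

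Genes that overlap a host or start within 1 kb of it were examined because reads or start regions can be shared. SLC3A2, the heavy chain of amino acid transporters, starts 188 bases from SNHG1 on the other strand. It had 6046, 5741 and 6081 in the control and 4254, 4957 and 4308 in the silenced libraries, and fell as SNHG1 did (log2 fold change -0.41, SE 0.0594, limma, adjusted p = 0.000662). ZNFX1, which starts 248 bases from ZFAS1 on the other strand and overlaps it, was at 1864 ± 119 and 1848 ± 66.7 (SD, n = 3 each; log2 fold change -0.01, limma, adjusted p = 0.943). ZBTB37, on the other strand of GAS5 with its start 800 bases away, had means of 624 and 685 (log2 fold change 0.13, limma, adjusted p = 0.302). SNHG1 therefore had a lower neighbour, and GAS5 had none that was called.

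RCC1, the exchange factor of the GTPase RAN, lies over SNHG3 on the same strand with a start 37 bases away, so reads of exons they share can be counted for either. It had 1118, 1007 and 1179 in the control and 990.0, 1039 and 1009 in the silenced libraries, with no call (log2 fold change -0.12, limma, adjusted p = 0.331). The other overlapping genes lie on the opposite strand, and none was called. GAS5-AS1 and MCMDC2 were low, with control means of 11.1 and 9.39, and TRNAU1AP over SNHG12 had means of 368 and 389. The kit was directional, but the sources used here do not say whether the counting used the strand, so the values of SNHG12, ZFAS1, GAS5 and SNHG6 are uncertain by what these genes contribute.

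Other non-coding hosts were listed to show where the 9 genes stand in their class. Of 22 listed, 21 were in the table and 20 were tested, of which 3 were lower and 0 higher, with a median log2 fold change of -0.12. SNHG16 fell most clearly, from 1769, 1818 and 1935 in the control to 1310, 1135 and 1231 in the silenced libraries. Its log2 fold change of -0.59 (SE 0.0657, limma, adjusted p = 7.93e-05) was beyond that of any of the 9 genes. DANCR, a host known for holding back differentiation, had means of 341 and 248 (log2 fold change -0.46, limma, adjusted p = 0.00909). SNHG17 had means of 476 and 376 (log2 fold change -0.33, limma, adjusted p = 0.0295). None of these 3 genes overlapped between the groups. The share called lower was 15%, against 6.84% of all genes tested. The 3 called genes are among the 12 of the 20 that averaged 100 or more, a class in which 13.3% of all genes were called lower. With 1 library left out 1 to 5 of the 20 were called, with 5 without shZDHHC20 replicate 2. Without the mean-variance trend 0 were called by limma, with 3 at an unadjusted p under 0.05, and without moderation of the variance 1 was. Of the 12 that averaged 100 or more, 10 had a negative log2 fold change. The median log2 fold change of all genes of that class was -0.01.

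**Figure D2:**
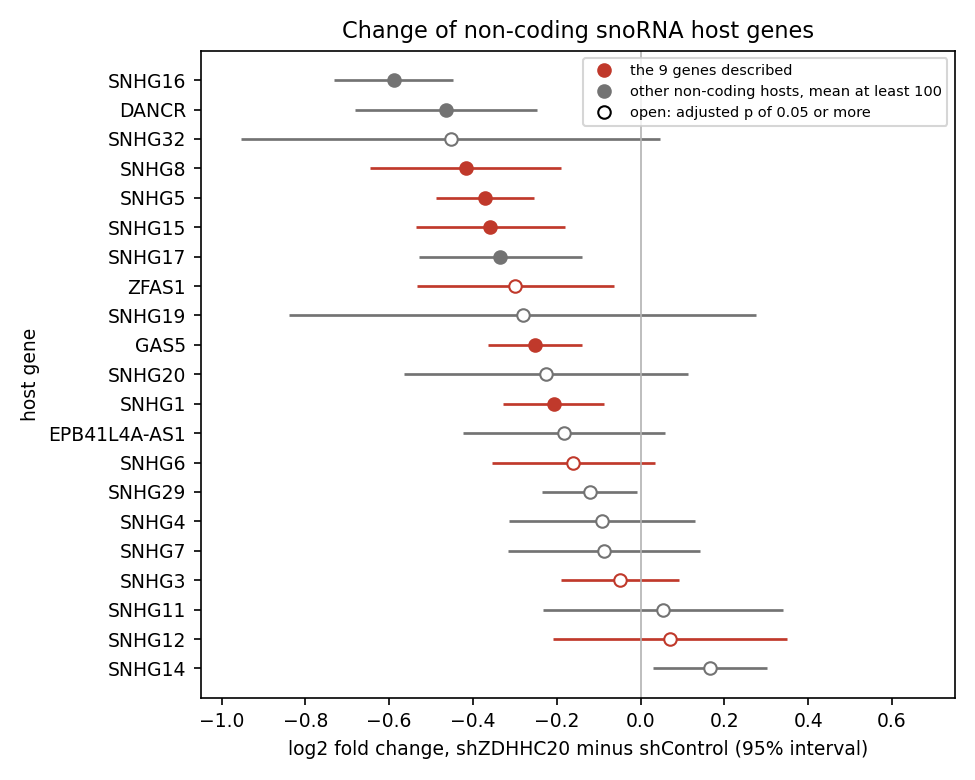
Log2 fold change, shZDHHC20 minus shControl, with its 95% interval for the 9 host genes (red) and the 12 other non-coding hosts with a mean of at least 100 (grey), where filled points have an adjusted p under 0.05. SNHG16 at -0.59 and DANCR at -0.46 lie beyond SNHG8 at -0.42.

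Most snoRNAs of the human genome sit in protein-coding hosts, many of which make ribosomal proteins or translation factors. Of 47 such hosts, 16 were lower and 0 higher, with a median log2 fold change of -0.11, while scaling to equal library sums gave 11 lower and 2 higher and quantile normalization gave 9 lower and 3 higher. The share of 34.04% called lower stands beside 13.3% of the genes that averaged 100 or more. Many of these hosts lie far above 100, where the SE can be smaller (0.0384 at RACK1, against 0.106 at SNHG8). The shares are therefore not matched on level. With 1 library left out 4 to 28 of the 47 were called, and the 28 (24 lower and 4 higher) were without shZDHHC20 replicate 2. Without the mean-variance trend 0 of the 47 were called by limma, with 15 at an unadjusted p under 0.05, and without moderation of the variance 5 were. RACK1, a ribosome-bound scaffold protein, went from 24238 to 19220 (log2 fold change -0.33, SE 0.0384, limma, adjusted p = 9.81e-05). NCL, the nucleolar protein nucleolin, went from 15278 to 10912 (log2 fold change -0.49, SE 0.0597, limma, adjusted p = 0.000161). Both were lower in each silenced library than in each control library.

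The proteins that bind snoRNAs were also described from lists. Of the 8 core proteins of C/D and H/ACA particles, 3 were lower and 0 higher. All 8 had a negative log2 fold change, and the median was -0.13. The share called lower was 37.5%, beside 13.3% of the genes that averaged 100 or more, whose median log2 fold change was -0.01. FBL, the methyltransferase fibrillarin, had 39380, 38562 and 38264 in the control and 33799, 35581 and 34564 in the silenced libraries (log2 fold change -0.16, limma, adjusted p = 0.0171). NOP56 (log2 fold change -0.20, limma, adjusted p = 0.0116), a scaffold of C/D box particles and itself a snoRNA host, and SNU13 (-0.22, adjusted p = 0.022) were the other two. With scaling to equal library sums 1 of the 8 was called, and with 1 library left out 0 to 4 were. In limma with no trend 0 of the 8 passed (3 at an unadjusted p under 0.05), and without moderation 1 did. Of 11 assembly factors, 3 were lower and 1 higher, and the 27.3% called lower stands beside the same 13.3%. With 1 library left out 2 to 5 of the 11 were called, 1 without the mean-variance trend and 2 without moderation. RUVBL1, an ATPase of the chaperone complex that builds these particles, went from 1745 to 1452 (log2 fold change -0.27, limma, adjusted p = 0.00552), and ZNHIT6, an assembly factor of C/D box particles, from 3464 to 2905 (-0.26, adjusted p = 0.0127). NOLC1, a nucleolar and Cajal body protein that binds both kinds of particle, went the other way, with 3047, 2934 and 3029.7 in the control and 4764, 4428 and 4716 in the silenced libraries (log2 fold change 0.63, SE 0.0489, limma, adjusted p = 7.39e-06).

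Factors of nonsense-mediated decay, the route by which many spliced host RNAs are removed, were listed next. Of 16 tested, 0 were lower and 1 was higher by limma, with a median log2 fold change of 0.01. DCP2, the decapping enzyme, rose from 1169 to 1475 (log2 fold change 0.33, SE 0.0614, limma, adjusted p = 0.00322). UPF1, the central helicase of the pathway, had means of 2219 and 1987 (log2 fold change -0.16, limma, adjusted p = 0.108), and the exonuclease XRN1 had means of 1302 and 1464 (0.17, adjusted p = 0.112). Without shZDHHC20 replicate 2 the counts were 1 lower and 3 higher, and 1 gene was the fewest called with any library left out. In limma 0 were called with no trend and 0 with no moderation, where 1 and 5 had an unadjusted p under 0.05.

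Protein-coding TOP messages share the start described for the hosts. Of 15 tested, 4 were lower and 1 higher. The 26.7% called lower stands beside 13.3% of the genes that averaged 100 or more. The median log2 fold change was -0.08 and became 0.01 without shZDHHC20 replicate 2. With 1 library left out 2 to 7 were called. With no trend in limma 0 of the 15 passed (5 at an unadjusted p under 0.05), and without moderation 4 did. RACK1, given among the hosts, led this list. HNRNPA1, a splicing regulator, went from 13614 to 10861 (log2 fold change -0.33, limma, adjusted p = 0.000186), and the elongation factor EEF2 from 34415 to 30378 (-0.18, adjusted p = 0.00805). Of 14 genes that control TOP messages, 2 were lower and 2 higher, and 2 to 6 were called with 1 library left out. The 14.3% called lower is near the 13.3% of genes that averaged 100 or more. Again 0 of the 14 passed in limma with no trend (7 at an unadjusted p under 0.05), and without moderation 1 did. LARP1, which binds the capped TOP start, went from 8759 to 7588 (log2 fold change -0.21, limma, adjusted p = 0.00822). EIF4EBP1, an inhibitor of the cap-binding protein eIF4E that mTOR regulates, went from 887 to 624 (-0.51, limma, adjusted p = 0.00147). TIA1, which binds TOP messages under stress, rose from 2596 to 3279 (0.34, limma, adjusted p = 0.000572).

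Because GAS5 can bind the glucocorticoid receptor, the receptor gene and known response genes were listed. Of 8 tested, 4 were lower and 0 higher, with a median log2 fold change of -0.30, and 3 to 4 were called with 1 library left out (3 without shControl replicate 1, shControl replicate 3 or shZDHHC20 replicate 1). Without the mean-variance trend 2 were called, and without moderation of the variance 3 were. The 50% called lower stands beside 13.3% of the genes that averaged 100 or more. NR3C1, the receptor gene, was not called (log2 fold change 0.06), nor were TSC22D3 (-0.13), SGK1 (-0.04) and FKBP5 (-0.04). DUSP1, a phosphatase that acts on MAP kinases, had 1267, 1268 and 1262 in the control and 886, 874 and 853 in the silenced libraries (log2 fold change -0.54, SE 0.058, limma, adjusted p = 6.15e-05). PER1, a circadian regulator, went from 749.6 to 535 (log2 fold change -0.49, limma, adjusted p = 0.000426), and BIRC3, an inhibitor of apoptosis that NF-κB also induces, from 2496 to 1755 (-0.51, adjusted p = 9.06e-05). These genes answer to other signals as well, and neither hormone exposure nor receptor activity was measured in these cells.

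The genes whose pattern over the 6 libraries was most like the median of the 9 hosts were searched among 6800 other genes with a mean of at least 500, by the root mean square difference of centred log2 values. The 5 nearest were RHOQ (0.023), ARID1A (0.0233), RTL10 (0.0264), PLIN2 (0.0265) and FADS1 (0.0271). RHOQ is a small GTPase, ARID1A a subunit of a chromatin remodelling complex, PLIN2 a lipid droplet protein and FADS1 a fatty acid desaturase. RHOQ had 1155, 1154 and 1161 in the control and 988, 994 and 984 in the silenced libraries. Their log2 fold changes lay between -0.24 and -0.20, and PLIN2 was not called (limma, adjusted p = 0.0733). None of these 5 is in the host lists, which is a description of likeness over 6 libraries only.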

How the data were processed

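RNA-seq was analysed from 3 shControl and 3 shZDHHC20 libraries of PANC-1 cells. The authors deposited a normalized signal for each of 27394 genes and library, on hg19 per the labels. The table is named FPKM, but all values are whole multiples of each library's smallest value (tolerance 0.05), the form that scaling counts by 1 factor per library gives. They are called normalized counts. The aligner, annotation and counting tool are not given in the sources used here. The values summed to between 17083277 and 18007664 per library.

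Gene names were matched for 27175 identifiers. Positions, exon lengths and hosted snoRNAs came from GENCODE 29 (GRCh38) by Ensembl identifier, and promoter windows from RefSeq (GRCh38.p14). log2(value + 0.1) was fitted with limma 3.58.1 in R 4.3.3 (lmFit, eBayes with trend, group as the only term), for genes with a mean of at least 1, two-sided, with Benjamini-Hochberg adjustment over 22189 genes. The pseudocount shrinks fold changes slightly, but a mean of log2 values follows libraries near 0 closely, so fold changes of low genes can exceed the ratio of the group means. Python 3.11.15, scipy 1.17.1 and matplotlib 3.10.9 were used for the rest, and the fit was tested on simulated data.

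The host genes and gene lists were chosen with earlier results of these data known. Named genes are the 9 hosts, ZDHHC20, MYC, the 3 of smallest adjusted p in each list, overlapping genes and those starting within 1 kb, hosted snoRNAs with a mean of at least 1, and the 5 nearest profiles. The alternatives changed the pseudocount (1 or 0.01), the filter (none, or 5), the scaling and the variance model, added a replicate block, or left out 1 library at a time. A few genes that meet this rule are left out of the text, and the uncalled genes of the glucocorticoid list are named in addition.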

Additional observations from a re-analysis of the deposited data

How the results depend on the processing

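Over 17 alternatives, 124 of the 153 values of the 9 host genes kept their direction and their side of the threshold, 28 of called genes lost the call, and 1, SNHG12 without shControl replicate 3, turned its sign (log2 fold change 0.07 as reported, and from -0.0393 to 0.205 with a library left out). Of 9 genes, 5 were called as reported, 0 without the mean-variance trend in limma (adjusted p of 0.0851 for SNHG5 and of 0.108 to 0.157 for the other 4), and 2, GAS5 and SNHG1, without moderation of the variance, where SNHG5 stood at 0.05001. Leaving out a library gave 1 to 5 calls and median log2 fold changes of the 9 genes from -0.25 to -0.22. With scaling to equal library sums the median was -0.21 and 4 genes were called, calls over all genes went from 1517 lower and 1024 higher to 1120 lower and 1466 higher, and the median of all genes moved from 0.01 to 0.05. The 2541 calls became 351 without the trend and 912 without moderation. The cause was not tested. Fits with fewer libraries have fewer degrees of freedom.

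With a replicate block 4 of the 9 genes were called and SNHG1 was lost (limma, adjusted p = 0.0737), and calls over all genes went from 2541 to 1942. Libraries of the same number did not deviate together (correlations of -0.0948, -0.156 and -0.0771 over 10908 genes). Pairs of unlike number had correlations from -0.0918 to 0.154. Deviations from a mean of 3 libraries offset one another, so these values cannot show whether the libraries were paired. The planned edgeR and DESeq2 fits were not run. The steps of the control values, from 1.0012 to 1.0105, lie too near 1 to be accepted as recovered reads for these fits. The comparisons with counting error took 1 step as 1 read all the same, and share this limit. Precision is limited by 3 libraries a group and by a depth that rests on taking 1 step as 1 read.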
